A study of Mus musculus with 9 samples.

Results

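Polycomb repressive complex 2 (PRC2) was examined through 10 mouse genes that encode core or accessory subunits, out of 37273 genes in the GENCODE M1 annotation of the mm9 genome. The members were the catalytic subunits *Ezh1* and *Ezh2*, the core subunits *Eed* and *Suz12*, the histone-binding subunits *Rbbp4* and *Rbbp7*, and the accessory subunits *Jarid2*, *Mtf2*, *Phf1* and *Phf19*. All 10 were found in the annotation by symbol. They were picked by name and not by any measured value, though with earlier results of these data known. For each gene, BAP1 peaks were listed whose middle lay within 1 kb of the transcription start site (TSS) of any of its transcripts, here called gene-proximal peaks, and then the nearest peak up to 50 kb away. Distances are signed, and a negative distance is upstream in the direction of the gene.

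The study mapped the binding of BAP1, a nuclear deubiquitinase, by ChIP-Seq in Ba/F3, an established murine B cell precursor line that grows in medium with IL-3. The peak list came from 2 immunoprecipitations, 1 with an anti-BAP1 antibody (52.8 μg) in wild-type Ba/F3 cells and 1 with the anti-FLAG M2 antibody (5 μg) in Ba/F3 cells that stably expressed triple-FLAG-tagged murine BAP1 under puromycin selection. The promoter that drives the tagged gene is not given in the sources used here, and the labels name no deletion of the endogenous *Bap1* gene in the tagged cells. Of the 9 samples in the series, the H2AK119ub and input DNA samples were not analysed here. The list held 13164 peaks on 21 chromosomes, all 200 bp wide, and 10073 of them (76.5%) were gene-proximal for some gene. It held no score, no read depth and no mark of the sample in which a peak was found, and each immunoprecipitation was sequenced once. Values below therefore have no replicate error, and no test was run. Expression was not measured in these samples, so neither the identity of the cells nor the activity of the PRC2 genes could be checked.

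PRC2 places methyl groups on a lysine of histone H3 (H3K27me3), a mark of silenced genes. It works beside PRC1, which attaches ubiquitin to a lysine of histone H2A (H2AK119ub), and accessory subunits such as JARID2 and the Polycomb-like proteins help to bring PRC2 to chromatin. BAP1 removes the ubiquitin from H2AK119ub, and in developing B cells EZH2 is known for its part in immunoglobulin gene rearrangement and proliferation.

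The sequences under the peaks come first, since they are the regions on which the distances rest. Each is the part of a peak that lies outside annotated non-coding exon sequence, read 5′ to 3′ along the strand of the gene from the mm9 genome. Capitals mark matches on either strand to the GC box (GGGCGG), the CCAAT box (CCAAT), an E2F motif (TTGGCGC) or the CRE (TGACGTCA). The upstream promoter peaks of the catalytic and core subunits are shown because they lie at the start of the main transcript, *Ezh1* on the minus strand at chr11:101087778-101087892, *Ezh2* on the minus strand at chr6:47545030-47545182 and *Suz12* on the plus strand at chr11:79806423-79806607.
Ezh1: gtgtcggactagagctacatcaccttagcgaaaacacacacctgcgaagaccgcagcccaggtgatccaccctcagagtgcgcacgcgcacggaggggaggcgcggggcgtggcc
Ezh2: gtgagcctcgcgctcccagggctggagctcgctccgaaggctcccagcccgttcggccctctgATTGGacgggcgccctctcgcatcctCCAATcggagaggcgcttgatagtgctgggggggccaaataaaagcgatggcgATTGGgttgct
Suz12: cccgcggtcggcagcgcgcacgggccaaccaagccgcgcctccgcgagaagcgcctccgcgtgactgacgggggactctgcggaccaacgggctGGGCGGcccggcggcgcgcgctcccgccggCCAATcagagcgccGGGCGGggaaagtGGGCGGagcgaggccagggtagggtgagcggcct

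Next are the promoter peaks of the histone-binding subunits and of *Mtf2*, for comparison with the core subunits. They are *Rbbp4* on the minus strand at chr4:129012615-129012766, *Rbbp7* on the plus strand at chrX:159198155-159198333 and *Mtf2* on the plus strand at chr5:108494568-108494692.
Rbbp4: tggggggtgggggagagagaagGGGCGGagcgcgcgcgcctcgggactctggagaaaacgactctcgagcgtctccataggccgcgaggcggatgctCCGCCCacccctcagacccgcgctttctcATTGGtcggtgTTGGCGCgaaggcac
Rbbp7: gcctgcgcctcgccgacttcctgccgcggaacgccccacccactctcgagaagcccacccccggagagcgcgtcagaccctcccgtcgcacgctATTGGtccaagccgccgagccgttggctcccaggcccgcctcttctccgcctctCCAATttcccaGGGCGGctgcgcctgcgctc
Mtf2: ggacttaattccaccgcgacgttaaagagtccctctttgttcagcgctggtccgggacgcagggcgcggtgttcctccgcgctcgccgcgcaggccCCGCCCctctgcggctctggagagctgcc

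The last 4 stretches are those where the peak lay away from the main start or was missing. *Jarid2* on the plus strand is shown at its upstream peak (chr13:44825848-44826047) and at a peak in its first intron (chr13:44829254-44829408). *Phf19* on the minus strand is shown at an intronic peak (chr2:34760724-34760923), and *Phf1* on the plus strand by the 200 bp before its TSS (chr17:27069872-27070071), where no peak was listed.
Jarid2 upstream: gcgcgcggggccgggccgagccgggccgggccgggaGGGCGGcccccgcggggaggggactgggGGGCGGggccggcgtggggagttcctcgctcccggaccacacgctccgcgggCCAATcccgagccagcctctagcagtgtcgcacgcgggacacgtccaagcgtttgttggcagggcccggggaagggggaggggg
Jarid2 intron: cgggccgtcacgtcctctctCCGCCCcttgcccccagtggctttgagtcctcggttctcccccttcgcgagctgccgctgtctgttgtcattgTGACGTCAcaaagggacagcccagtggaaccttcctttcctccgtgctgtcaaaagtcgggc
Phf19 intron: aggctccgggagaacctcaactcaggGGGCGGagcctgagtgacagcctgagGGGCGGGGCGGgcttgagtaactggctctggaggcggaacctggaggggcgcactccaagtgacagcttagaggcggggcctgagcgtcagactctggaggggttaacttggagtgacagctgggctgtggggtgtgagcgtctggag
Phf1 without a peak: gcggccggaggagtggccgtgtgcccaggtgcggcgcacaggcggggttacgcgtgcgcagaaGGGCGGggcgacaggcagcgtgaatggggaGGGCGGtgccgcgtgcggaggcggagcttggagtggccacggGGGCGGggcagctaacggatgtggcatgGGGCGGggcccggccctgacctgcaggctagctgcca

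BAP1 peaks were listed at the start sites of nearly all of these PRC2 genes. Of the 10 members, 9 (90%) had a gene-proximal peak, and *Phf1* alone did not. The same was true of 26.2% of all annotated genes (9760 of 37273) and of 39.6% of protein-coding genes (8850 of 22367). The 9 bound members, those with a gene-proximal peak, carried 13 such peaks, with 1 peak at 6 genes, 2 peaks at *Rbbp4* and *Rbbp7*, and 3 at *Jarid2*. The farthest nearest peak inside the 1 kb limit lay 396 bp from a TSS (*Phf19*) and the nearest outside it 6249 bp away (*Phf1*), so no member stood close to the limit.

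PRC2 genes tended to have many start sites and CpG-rich promoters, and across protein-coding genes both properties went with a higher share of bound genes. The members had a median of 5 TSSs against 2 for protein-coding genes. All 8 members with 4 or more TSSs were bound, where 61.6% of such protein-coding genes were. All 9 members with a CpG ratio, observed over expected, of 0.6 or more at the TSS of the main transcript were bound, where 70.1% of such genes were. For genes with both properties the values were 8 of 8 members and 77.1%. The main transcript is the protein-coding one with the longest summed exons. When a peak within 1 kb of that one TSS was required, 8 of 10 members had one, against 37.6% of protein-coding genes, and *Phf19* joined *Phf1* among those without. Among genes CpG-rich at that TSS, the values were 8 of 9 members and 69.5%. The share of bound members was thus far above that of all genes and nearer to that of genes with like promoters, and with 10 members 1 gene more or less moves the share by 10 percentage points.

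**Figure D1:**
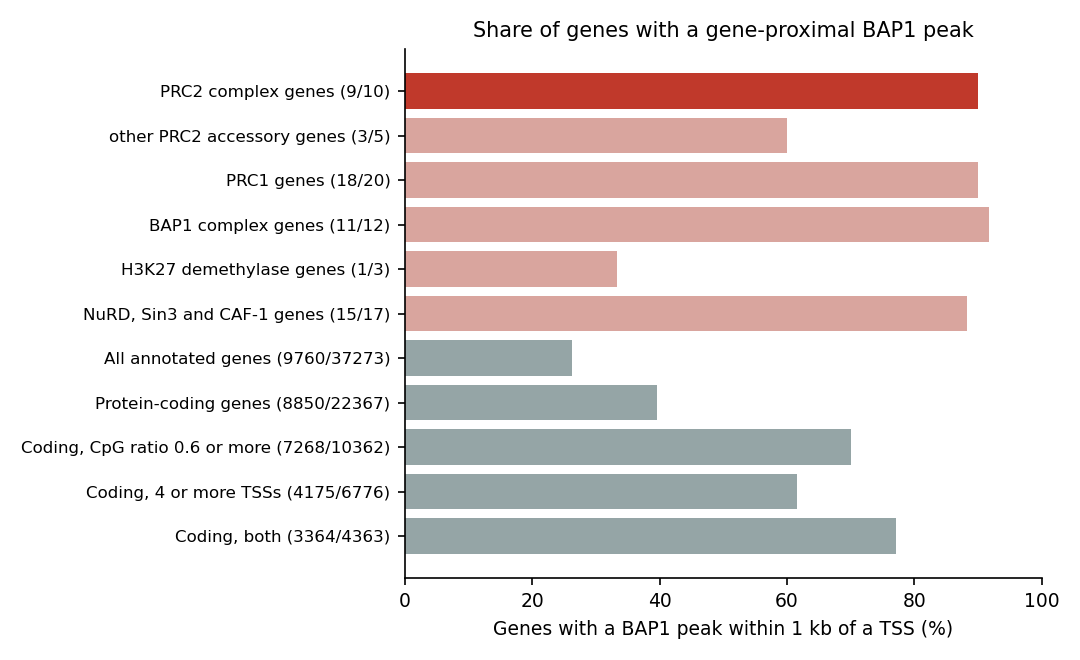
Share of genes with a BAP1 peak within 1 kb of a TSS (horizontal axis, percent) for PRC2 genes (dark red), the comparison lists (light red) and background sets (grey), with bound genes over all genes in brackets. PRC2 genes (9 of 10) stand beside PRC1 genes (18 of 20), and the grey bars rise from 26.2% of all genes to 77.1% of coding genes with a CpG ratio of 0.6 or more and 4 or more TSSs.

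The peaks sat close to the start sites. Over the 9 bound members the median distance from a TSS to the middle of the nearest peak was 56 bp, against 46 bp over bound protein-coding genes, whose quartiles were 19 and 91 bp. Bound protein-coding genes with 4 or more TSSs had a median of 36 bp. Those that were also CpG-rich at the main TSS had a median of 35 bp, with quartiles of 13 and 71 bp. In 8 members the nearest peak lay within 100 bp of a TSS, which is the distance from the middle of a peak to its edge. In order of distance these were *Rbbp4* (5 bp), *Ezh1* (15 bp), *Mtf2* (26 bp), *Eed* (55 bp), *Jarid2* (56 bp), *Ezh2* (68 bp), *Rbbp7* (80 bp) and *Suz12* (86 bp). Neighbours in that order differed by less than the width of a peak, and so their order cannot be read as a difference between genes. *Phf19*, at 396 bp, stood apart from them. All 9 nearest peaks were upstream of the TSS nearest to them, as were 75.0% of those of bound protein-coding genes. Of the 13 peaks, 9 covered a TSS of their own gene, a share that was not computed over all gene-proximal peaks. The upper quartile of bound protein-coding genes, 91 bp, was also within 100 bp, so most of them had a peak that near.

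**Figure D2:**
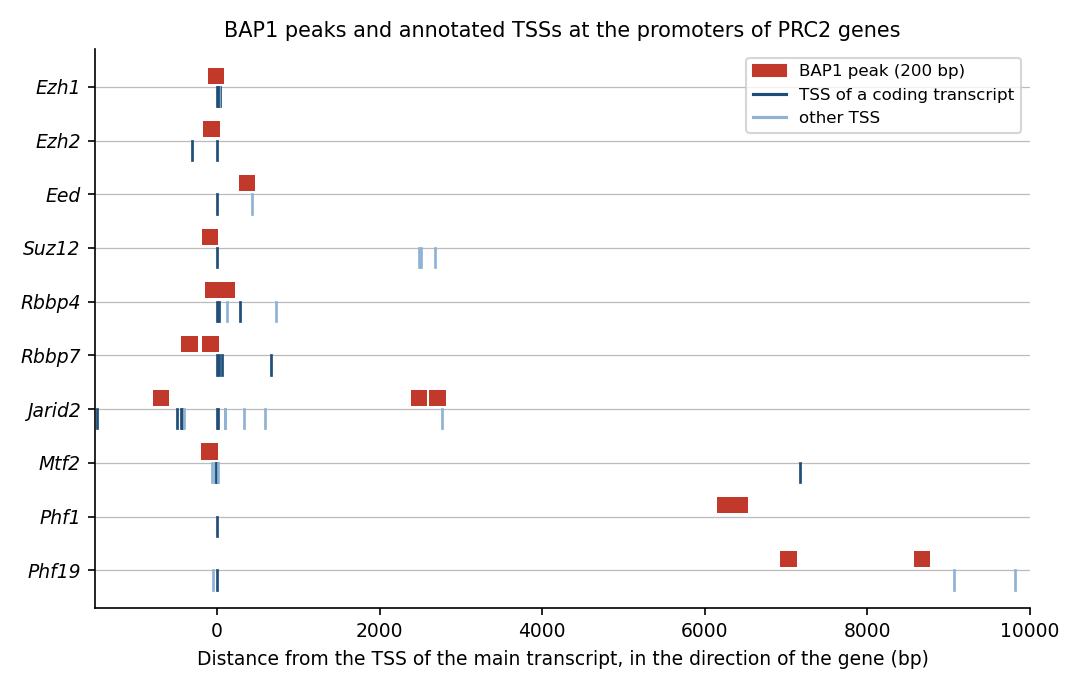
BAP1 peaks (red boxes, 200 bp, to scale) and annotated TSSs (dark blue, coding transcripts; light blue, other transcripts) of each PRC2 gene, by distance in bp from the TSS of the main transcript in the direction of the gene. Peaks crowd at 0 in most genes, but *Eed* has its peak at 369 bp and *Jarid2* has peaks at -693, 2483 and 2713 bp. *Phf1* and *Phf19* have none within 1 kb of 0. The boxes of *Phf1* at 6249 and 6429 bp lie beyond the end of that gene.

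The catalytic subunits each had 1 gene-proximal peak, at the start of the main transcript. EZH1 and EZH2 are the alternative methyltransferases of PRC2, EZH2 being known as the form of dividing cells and EZH1 as that of resting ones. *Ezh1* (ENSMUSG00000006920.8) spans chr11:101052429-101087777 on the minus strand, with 9 annotated TSSs, of which 4 lay within 1 kb of the peak. Its peak, at chr11:101087693-101087892, had its middle 15 bp upstream of Ezh1-001 and reached into the first exon. *Ezh2* (ENSMUSG00000029687.9) spans chr6:47480273-47545340 on the minus strand, also with 9 TSSs. Its peak, at chr6:47544998-47545197, lay 68 bp upstream of Ezh2-001, a start shared by 4 coding transcripts. Both genes thus had their peak at a coding start, and the distances differed by less than the width of a peak. A long non-coding RNA gene, *Gm17629*, starts 783 bp from an *Ezh2* TSS on the opposite strand.

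The core subunits EED, which binds H3K27me3 and stimulates the enzyme, and SUZ12, the scaffold of the complex, differed in where their peak fell. *Suz12* (ENSMUSG00000017548.9, chr11:79806608-79847625, plus strand) had 1 peak at chr11:79806423-79806622, 86 bp upstream of Suz12-001. Its other 4 TSSs were farther than 1 kb from a peak. *Eed* (ENSMUSG00000030619.8, chr7:97103166-97129493, minus strand) has only 2 TSSs, and both were within 1 kb of its peak at chr7:97129025-97129224. That peak lay 55 bp upstream of Eed-002, a non-coding processed transcript, and 369 bp downstream of the coding start, Eed-001, in the 5′ UTR of exon 1. *Eed* was therefore the only one of the 4 catalytic and core genes with its peak downstream of the main start. *Ezh2* has another coding start, at -311 bp from Ezh2-001, and its peak lay downstream of that one.

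The histone-binding subunits RBBP4 and RBBP7, WD40 proteins that also belong to the NuRD and Sin3 complexes, had 2 gene-proximal peaks each. *Rbbp4* (ENSMUSG00000057236.9, chr4:128984344-129012614, minus strand) had peaks at chr4:129012567-129012766, 52 bp upstream of Rbbp4-001, and at chr4:129012399-129012598, 116 bp downstream of that start in the 5′ UTR of exon 1. The second lay 5 bp upstream of Rbbp4-003, a retained-intron transcript. The middles were 168 bp apart and the intervals shared 32 bp, so these may be read as a single bound stretch. All 5 TSSs of *Rbbp4* were within 1 kb of a peak.

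The start of *Rbbp4* is shared. The protein-coding gene *Zbtb8os* starts 325 bp away on the opposite strand, and the same peaks lay within 1 kb of its TSS, so that the list cannot assign them to either gene. *Rbbp7* (ENSMUSG00000031353.7, chrX:159198334-159217024, plus strand) had peaks at chrX:159198155-159198354 and chrX:159197896-159198095, 80 and 339 bp upstream of Rbbp7-001. Their middles were 259 bp apart and the intervals did not overlap. At both genes the peaks lay on or beside the coding start. Among bound protein-coding genes, 74.5% had 1 gene-proximal peak, 23.5% had 2 and 2% had more, beside 6, 2 and 1 of the 9 bound members.

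*Jarid2*, whose product brings PRC2 to chromatin that carries H2AK119ub, had 3 gene-proximal peaks, the most of any member. It is also the longest member (192170 bp, ENSMUSG00000038518.8, chr13:44824843-45017012, plus strand) and the one with the most TSSs, 17, of which 10 lay within 1 kb of a peak. The upstream peak at chr13:44825848-44826047 lay 693 bp upstream of Jarid2-001, the main transcript, and 196 bp upstream of Jarid2-003, another coding one. A pair of peaks in intron 1 of the main transcript, at chr13:44829024-44829223 and chr13:44829254-44829453, lay 286 and 56 bp upstream of Jarid2-012, a non-coding processed transcript. They were 2483 and 2713 bp downstream of the main start. *Jarid2* thus had peaks at a coding start and at an internal non-coding start 3176 bp or more apart, and no peak fell within 500 bp of the main start itself.

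The Polycomb-like genes *Mtf2*, *Phf1* and *Phf19* encode proteins with a Tudor domain and PHD fingers that help PRC2 to bind CpG islands, and they differed most among themselves. *Mtf2* (ENSMUSG00000029267.10, chr5:108494693-108538023, plus strand) had 1 peak at chr5:108494568-108494767, 26 bp upstream of Mtf2-002, a processed transcript, and 94 bp upstream of the coding Mtf2-001. Of its 10 TSSs, 7 lay within 1 kb of it. It was the only one of the 3 with a peak within 1 kb of its coding main start.

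*Phf19* (ENSMUSG00000026873.3, chr2:34749277-34769546, minus strand) had no peak at its main start. Its gene-proximal peak at chr2:34760724-34760923 lay in intron 6 of Phf19-001, 8673 bp downstream of that start, and 396 bp upstream of Phf19-004, a processed transcript. A second peak, at chr2:34762365-34762564 in intron 4, lay 7032 bp downstream of the main start and within 1 kb of no annotated TSS. *Phf19* was counted as bound through an internal non-coding start only.

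*Phf1* (ENSMUSG00000024193.7, chr17:27070072-27074835, plus strand) is the shortest member, at 4764 bp, and has 1 transcript and 1 TSS. Its nearest peak, at chr17:27076222-27076421, lay 6249 bp downstream of that TSS and past the end of the gene. The peak was 46 bp downstream of the TSS of *Cuta*, a protein-coding neighbour. Within 50 kb of *Phf1* there were 6 peaks, the most around any member, so the gap at its start lay in a region with peaks at other genes. Because the list gives no coverage, absence of a peak at *Phf1* says only that none was called there, not that BAP1 was absent.

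**Figure D3:**
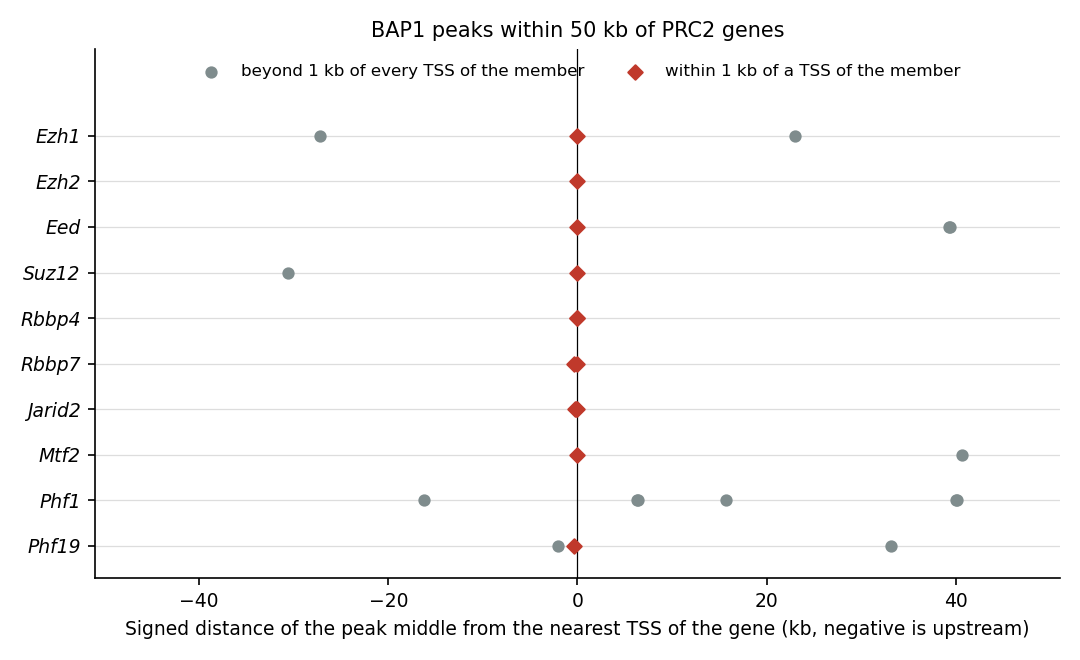
All BAP1 peaks within 50 kb of each PRC2 gene, by signed distance in kb of the peak middle from the nearest TSS of the gene (negative is upstream); red diamonds lie within 1 kb of a TSS of the gene and grey points farther away. The 9 bound genes have a red diamond near 0; *Ezh2*, *Rbbp4*, *Rbbp7* and *Jarid2* have no grey point, and *Phf1* has 6 grey points and no red one.

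Most farther peaks near the PRC2 genes lay at the starts of other genes, and most peaks of the whole list lay at a gene start. There were 14 peaks between 1 and 50 kb from a TSS of 6 members, and 13 of them lay within 1 kb of a TSS of another gene, where 76.5% of all 13164 peaks lay within 1 kb of some TSS. Around *Ezh1* these were peaks 19 bp upstream of *Plekhh3* and 12 bp upstream of *Vps25*, and around *Eed* a pair at *l7Rn6*, 68 bp upstream and 23 bp downstream of its TSS. The single farther peak of *Suz12* lay 75 bp upstream of *Utp6* and that of *Mtf2* lay 142 bp upstream of *Tmed5*. The peaks around *Phf1* included a pair at *Cuta* and 1 each at *Kifc5b*, *Zbtb9* and *Ggnbp1*. *Phf19* had 1 farther peak 88 bp upstream of *Psmd5*, and its intronic peak at intron 4 was the exception that lay at no annotated start. *Ezh2*, *Rbbp4*, *Rbbp7* and *Jarid2* had no other peak within 50 kb, and their next peaks were 80473, 62134, 54882 and 161321 bp away.

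PRC2 promoters were rich in CpG. CpG islands are the stretches at which Polycomb complexes are known to gather in mammalian genomes, and they also mark promoters of widely expressed genes. Measured from 500 bp before to 500 bp after the TSS nearest to the peak (the main TSS for *Phf1*), the CpG ratio had a median of 0.842 over the 10 members. Bound protein-coding genes, also measured at the TSS nearest to the peak, had a median of 0.771 with quartiles of 0.667 and 0.869. Unbound ones, measured at the main TSS, had a median of 0.296 with quartiles of 0.157 and 0.572. The ratio was 0.966 for *Ezh2*, 0.964 for *Eed*, 0.962 for *Rbbp4*, 0.899 for *Rbbp7* and 0.874 for *Suz12*, all above the upper quartile of bound genes. It was 0.810 for *Mtf2* and 0.797 for *Ezh1*, within those quartiles.

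The 3 lowest ratios were those of *Jarid2*, *Phf1* and *Phf19*. For *Jarid2* and *Phf19* the start measured was an internal one, chosen because it was nearest to a peak. Their low ratios therefore depend on that choice, and at the main start *Jarid2* was above *Mtf2* (0.808) and *Ezh1* (0.797). *Jarid2* had a ratio of 0.649 at its internal start, and 0.813 at its main start. *Phf19* had 0.419 at its internal start, and 0.782 at its main start, where no peak was listed. *Phf1* had 0.550, below the lower quartile of bound genes though its GC content was 66.0%. Over 250 bp on either side it had 0.666, where the median of bound protein-coding genes was 0.838. A CpG-rich main start was thus present at *Phf19* without a peak, and the peak of *Phf19* lay at a start poor in CpG.

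**Figure D4:**
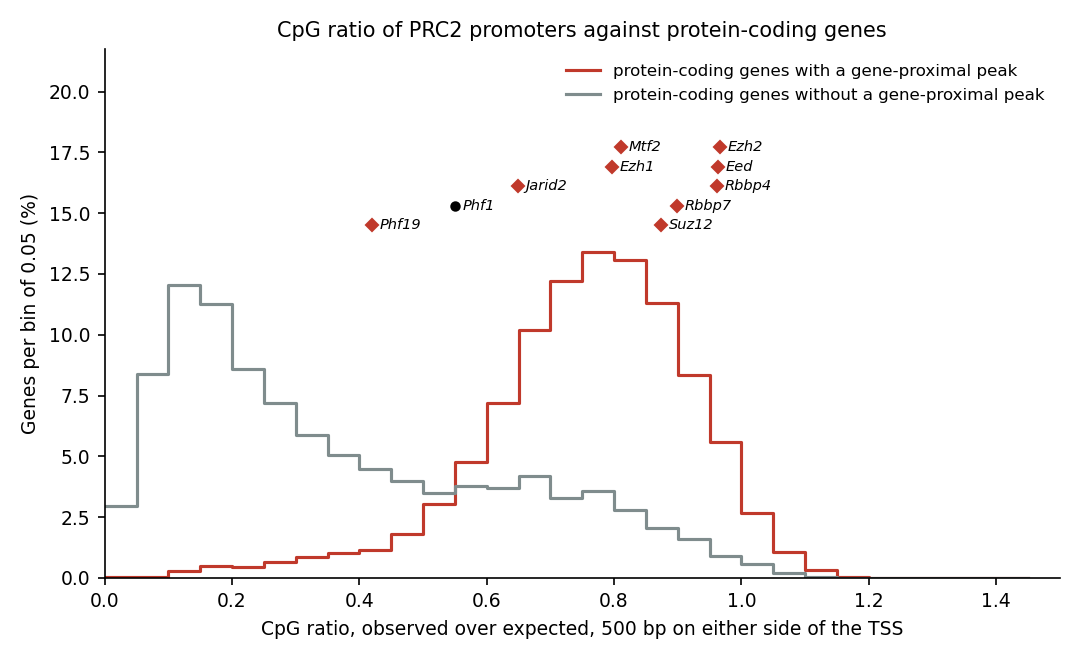
Distribution of the CpG ratio in a stretch of 500 bp on each side of a TSS for protein-coding genes with (red line) and without (grey line) a gene-proximal BAP1 peak, in percent of genes per bin of 0.05, with the 10 PRC2 genes marked above at their own ratio (red diamonds, bound; black point, *Phf1*; heights of the marks carry no value). *Jarid2*, *Phf1* and *Phf19* lie at 0.649, 0.550 and 0.419, and the remaining members at 0.797 or more. The TSS is the one nearest to the peak for genes with a peak and the main one for genes without.

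The peaks of the PRC2 genes held the motifs of common promoter factors at shares near those of all gene-proximal peaks for the GC box and the CCAAT box. Each 200 bp peak was searched on both strands for 11 motifs, and matches may overlap. The GC box (GGGCGG), bound by SP1 and its relatives, was in 10 of 13 member peaks (76.9%) and in 68.6% of all 10073 gene-proximal peaks. The CCAAT box, bound by NF-Y, was in 5 of 13 (38.5%) against 30.0%, at *Ezh2*, *Suz12*, *Rbbp4*, *Rbbp7* and the upstream peak of *Jarid2*. *Ezh2* held 3 CCAAT boxes and *Rbbp7* held 2 in the peak at its start.

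Motifs of cell cycle factors were seen in 3 members. The E2F letters TTGGCGC were in the peaks of *Ezh2* and *Rbbp4* (2 of 13, or 15.4%, against 3.61% of all gene-proximal peaks), upstream of the TSS in *Rbbp4* and inside the first exon, outside the printed stretch, in *Ezh2*. A second E2F form, TTCCCGC, was in that of *Mtf2* (1 of 13, against 7.13%), also past the printed stretch. E2F factors drive genes of the S phase, and *Ezh2* and *Eed* are known among their targets, though the peak of *Eed* held neither E2F form. With 13 peaks from 9 genes, a single match moves a share by 7.69 percentage points, so these counts describe the sequences under these peaks and no more.

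Each of the other motifs was in 1 member peak or in none. *Mtf2* also held the YY1 letters GCCATNTTG (4.94% of all gene-proximal peaks) past the printed stretch, the internal peak of *Jarid2* the CRE (TGACGTCA, 3.35%), a match that covered the middle of the peak, and *Ezh1* the forkhead letters GTAAACA (2.09%), in the part of the peak inside the first exon. ASXL proteins, HCF-1, YY1 and the forkhead factors FOXK1 and FOXK2 are known partners of BAP1. The YY1 and forkhead matches lay near the edges of their peaks, and binding of these partners there was not tested. The ETS letters CCGGAAG were in none of the 13 member peaks and in 20.2% of all gene-proximal peaks. None held the NRF1 letters GCATGCGC (5.80%), the E-box CACGTG (8.06%) or the ZNF143 letters ACTACAA (2.92%) either. The farther of the 2 peaks of *Rbbp7* held none of the 11 motifs.

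The unbound start of *Phf1* held the GC box as well. The 200 bp before its TSS, printed above, had 4 GC boxes and no match to the other 10 motifs. A GC box was in the same stretch of 39.4% of protein-coding genes, of 60.9% of those with a gene-proximal peak and of 25.4% of those without. GC boxes were thus present both where a peak was listed and at the 1 member where none was.

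Genes of PRC1, of the BAP1 complex and of the NuRD, Sin3 and CAF-1 complexes had peaks at shares near that of the PRC2 genes, while the shorter lists of other PRC2 accessory genes and of H3K27 demethylase genes had lower shares. Of 5 other PRC2 accessory genes, *Aebp2*, *Lcor* and *Lcorl* had a gene-proximal peak (60%), while *Epop* (annotated as E130012A19Rik) had its nearest peak 30675 bp upstream and *Ezhip* (annotated as AU022751) none within 50 kb. Of 20 PRC1 genes 18 were bound (90%), all but *Bmi1*, with a peak 4320 bp upstream, and *Cbx7*, with one 4701 bp downstream. Genes of BAP1 and its partners were bound in 11 of 12 cases (91.7%), *Asxl3* having no peak within 50 kb. The NuRD, Sin3 and CAF-1 complexes share RBBP4, RBBP7 or both with PRC2. Their listed genes were bound in 15 of 17 cases (88.2%), *Mta3* and *Gatad2b* being the exceptions. Of the 3 genes for enzymes that remove methyl groups from H3K27 or their Y-linked relative, *Kdm6a* was bound (33.3%), *Kdm6b* had its nearest peak 1738 bp upstream and *Uty* none within 50 kb.

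The median distance of the nearest peak was 56 bp for bound PRC2 genes, 53.5 bp for PRC1, 81 bp for BAP1 complex and 51 bp for NuRD, Sin3 and CAF-1 genes. These medians lay closer together than the width of a peak. The list holds no value on which the bound genes could be ranked.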

How the data were processed

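Binding of BAP1 was measured by ChIP-Seq in Ba/F3 cells. The authors aligned reads to mm9 (Bowtie 1.0.0) and identified peaks over input DNA (MACS 1.4.2), by the submitters' processing notes and the methods of the study. The deposited list gives the coordinates of each peak and no score. The threshold of the caller and the rule that joined both immunoprecipitations are not given in the sources used here, and either would change how many genes have a peak. Fixed peak widths limit every distance to about 100 bp. The depth of the samples is unknown.

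Samples were grouped by their labels. Peaks were placed on GENCODE M1 (NCBIM37, mm9; mitochondrial genes left out), with 37273 genes, of which 22367 are protein-coding. The middle of a peak is its start plus 100 bp. CpG ratios and 11 motifs, on both strands, came from the mm9 sequence. No test was run, since there is 1 list without replicates. Comparison lists are described by counts.

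Members, lists and motifs were chosen with earlier results of these data known. The genes named are all members, genes of the comparison lists without a gene-proximal peak, opposite-strand neighbours within 1 kb, and the coding genes nearest to farther peaks. The neighbour of 1 farther peak is not reported here. *Aebp2*, *Lcor*, *Lcorl* and *Kdm6a* were named outside this rule, after their values were seen. Alternatives were other windows, the peak edge, 1 TSS per gene, coding TSSs, merged peaks, protein-coding genes as background, longer stretches for motifs and a shorter one for CpG. Backgrounds by CpG ratio and TSS number, and by the main TSS, were added after seeing the data. On simulated data, 2000 of 2000 distances and all 1496 merged intervals equaled those of bedtools, and 1100 of 1100 planted motifs were found. Python 3.11.15, numpy 2.4.6, scipy 1.17.1 and matplotlib 3.10.9 were used.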

Additional observations from a re-analysis of the deposited data

How the results depend on the processing

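The share of PRC2 genes with a gene-proximal peak was 90% with windows of 500 bp, 2 kb and 5 kb, with the edge of the peak and with peaks within 500 bp merged, and 80% with 1 TSS per gene, with coding TSSs only or with the main TSS only, where *Phf19* was lost. It was 100% when limited to members with 4 or more TSSs, with a CpG ratio of 0.6 or more, or with both. *Phf1* is in none of these sets, but its CpG ratio of 0.666 over 250 bp on either side would make it CpG-rich. The median CpG ratio of the members was 0.842 over 500 bp on either side and 0.888 over 250 bp. Gene-proximal peaks numbered 13, 14 with the window of 5 kb, and 10 with 1 TSS per gene, coding TSSs or merged peaks. The share of PRC1 genes was 90%, 100% with the window of 5 kb, which takes in *Bmi1* and *Cbx7*, and 80% with 1 TSS per gene. That of BAP1 complex genes went from 91.7% to 83.3% with 1 TSS per gene, and that of the 3 H3K27 demethylase genes from 33.3% to 66.7% with windows of 2 and 5 kb, which take in *Kdm6b*. The median distance of 56 bp became 83 bp with 1 TSS per gene, 80.5 bp with coding TSSs, 68 bp with merged peaks and 0 bp from the edge. The nearest peak of *Eed* became 369 bp away, that of *Jarid2* 792 or 196 bp and that of *Phf19* 7032 bp with 1 TSS per gene or coding TSSs, and merging moved *Rbbp7* to 210 bp and *Jarid2* to 171 bp. With 100 bp more on either side of the peaks, YY1 was in 2 member peaks (7.48% of all gene-proximal peaks so extended) and the E-box in 2 (12.4%). The E2F letters TTCCCGC were in 3 (13.2%), TTGGCGC in 3 (6.43%) and ZNF143 in 1 (4.74%). The GC box was in 12 (79.9%) and the CCAAT box in 6 (42.1%). Shares over all gene-proximal peaks thus rose as well. Of 110 values computed under alternatives, 94 stayed within the counting error, peak width or spread set for them and 16 moved. The counting error of a share is wide for lists this short. The change from 33.3% to 66.7% of the H3K27 demethylase genes counted as within it, so the tally says little about the shares. A stricter threshold of the caller and leaving out a sample were not run, since the list has no score and pools the samples. No paired analysis was possible because the list joins both samples and no test was made.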
